A study of Mus musculus with 18 samples.

Results

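The genes described here are those of mouse whose symbol begins with Smim, for small integral membrane protein, in RNA sequencing of LPS-treated macrophages, together with 2610001J05Rik, the mouse gene for Smim30. Members were taken by name, whatever their levels, although earlier results of these data were known when the set was chosen. There were 32 of them among the 55401 genes counted in every library: 25 carried the symbol in GENCODE M21, 6 carried it only in RefSeq, and 1 was 2610001J05Rik. The study asked what loss or gain of Smim30 does to macrophage RNA. It comprised 6 groups of 3 libraries, and all 18 libraries came from cells given LPS at 5 ng/ml for 6 h. In the first experiment, peritoneal macrophages of wild-type mice (WT) were set against those of SMIM30-mutant mice (Mut). In the second, mutant macrophages were infected 6 h after seeding with an adenovirus that served as control (Mut AdCtrl) or was made to overexpress SMIM30 (Mut AdSmim30), and stayed with it for 24 h before LPS. So both virus groups carried the mutation, and no wild-type cells received virus. In the third, IC-21 cells, an established line of virus-transformed mouse peritoneal macrophages, took up either a control siRNA (siCtrl) or one against Smim30 (siSmim30) over 24 h of transfection. The strain label of the mice was C57BL/6J. The mutated bases, the virus insert and the siRNA sequence are not given in the sources used here, and neither are the age of the mice or whether replicates came from separate mice or cultures. P-values therefore measure the spread between these libraries, which may be technical.

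Smim is a naming root and not a family by descent: it gathers short proteins that are predicted to cross a membrane once or so and that had no better name. Such proteins are easily missed in gene finding, because their reading frames are short. Several have since been given roles. Smim4 takes part in the assembly of respiratory complex III, Smim20 (also called MITRAC7) in that of complex IV, Smim6 (endoregulin) inhibits the SERCA calcium pump, Smim1 carries the Vel blood group antigen of red cells, Smim22 (CASIMO1) is an epithelial protein, and human SMIM30 has been reported to bind the kinases SRC and YES1.

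The reading frames of 3 members are shown because the results turn on these genes: Smim30 was the gene perturbed, Smim14 had the highest fold change among Smim genes that rose with virus and culture, and Smim24 had the largest difference between peritoneal macrophages and IC-21 cells. Each is the coding sequence of GENCODE M21 (GRCm38), 5′ to 3′ on the gene's own strand, with the start and stop codons in capitals, and that of Smim24 is cut to its first 300 of 363 bases.
Smim30: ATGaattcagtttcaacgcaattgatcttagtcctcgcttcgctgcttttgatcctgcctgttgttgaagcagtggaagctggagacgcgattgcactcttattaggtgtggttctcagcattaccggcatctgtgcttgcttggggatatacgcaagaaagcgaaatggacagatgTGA
Smim14: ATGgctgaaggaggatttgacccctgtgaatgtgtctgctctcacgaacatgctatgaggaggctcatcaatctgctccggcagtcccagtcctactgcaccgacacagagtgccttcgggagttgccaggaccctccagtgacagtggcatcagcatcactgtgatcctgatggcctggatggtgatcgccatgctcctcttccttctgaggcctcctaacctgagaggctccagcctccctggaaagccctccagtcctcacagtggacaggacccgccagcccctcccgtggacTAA
Smim24: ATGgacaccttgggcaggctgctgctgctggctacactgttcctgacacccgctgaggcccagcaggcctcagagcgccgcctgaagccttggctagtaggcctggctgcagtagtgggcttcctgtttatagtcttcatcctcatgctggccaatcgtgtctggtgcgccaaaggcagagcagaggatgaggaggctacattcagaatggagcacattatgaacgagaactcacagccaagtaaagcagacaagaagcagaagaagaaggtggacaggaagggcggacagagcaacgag
The Smim30 frame lies on the minus strand of chr6:13870532-13870711, within 1 of the transcript's 3 exons. Its 180 bases, stop codon included, encode 59 residues and make up 4.76% of the 3784 exonic bases over which reads were counted. The Smim14 frame is spread over 4 coding exons on the minus strand of chr5:65450405-65468467 and encodes 99 residues. That of Smim24 is spread over 4 coding exons on the plus strand of chr10:81393093-81394896 and encodes 120. Among the 16 Smim genes with enough reads to be tested in at least 1 comparison, the frames ran from 49 codons for Smim27 to 120 for Smim24. The longest run of bases that the Smim30 frame shared with the transcript of another of these genes was 7 to 11 bases.

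The libraries held 6855245 to 13456857 read pairs assigned to genes, and levels are given as CPM, a gene's count scaled to a library total of 1000000. A count of 3, taken as the detection limit, corresponded to 0.223 to 0.438 CPM. Ribosomal RNA genes took 0.195 to 2.49% of counts, with 1.74 to 2.49% in WT and 0.399 to 1.03% in Mut. The summed level of 8 macrophage markers was 11036 to 11755 CPM in WT, 9955 to 10458 in Mut, 9783 to 10077 in the virus groups and 2826 to 3022 in IC-21. Large peritoneal macrophage markers summed to 9.53 to 18.9 CPM in the peritoneal groups, while 3 of these 5 markers (Gata6, Timd4 and Prg4) had no count in IC-21.

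Between 14 and 16 of the 32 Smim genes were expressed in a group. Taking 1 CPM in all 3 libraries of a group as expressed, 15 of 32 were expressed in WT, 14 in Mut, 16 in each virus group and 15 in each IC-21 group. The same 13 genes reached this level in every group, among them Smim3, Smim7, Smim8, Smim10l1, Smim11, Smim13, Smim14, Smim15, Smim19, Smim20, Smim26 and Smim30. Another 3 did so in some groups. Smim4 missed it in Mut alone, where 1 library had 0.88 CPM. Smim27 missed it in WT and Mut, and Smim24 missed it in both IC-21 groups.

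The other 16 Smim genes were at or near 0. No count was found in any library for 8 of them: Smim5, Smim6, Smim9, Smim22, Smim23, Smim31, Smim34 and Smim40-ps, of which Smim34 is annotated as a processed pseudogene. A count of 0 allows a level of up to 0.223 to 0.438 CPM, depending on the library. Among them are the SERCA inhibitor Smim6 and the epithelial Smim22; epithelial markers were also low, with a summed level of at most 1.52 CPM and no count of Epcam. The remaining 8 had between 1 and 47 counts over all 18 libraries. Smim1 had 47, all from the peritoneal groups and at most 0.90 CPM in a library, while Hba-a1, Hba-a2, Hbb-bs and Hbb-bt of red cells had no count and the erythroid markers together reached at most 0.478 CPM. Smim17 had 43 counts and its highest library, at 1.14 CPM, was one of siSmim30. Smim40 had 42 and Smim38 had 26, both with no count in IC-21. Smim41 had 15, and Smim10l2a, Smim18 and Smim43 had 1 each.

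**Figure D1:**
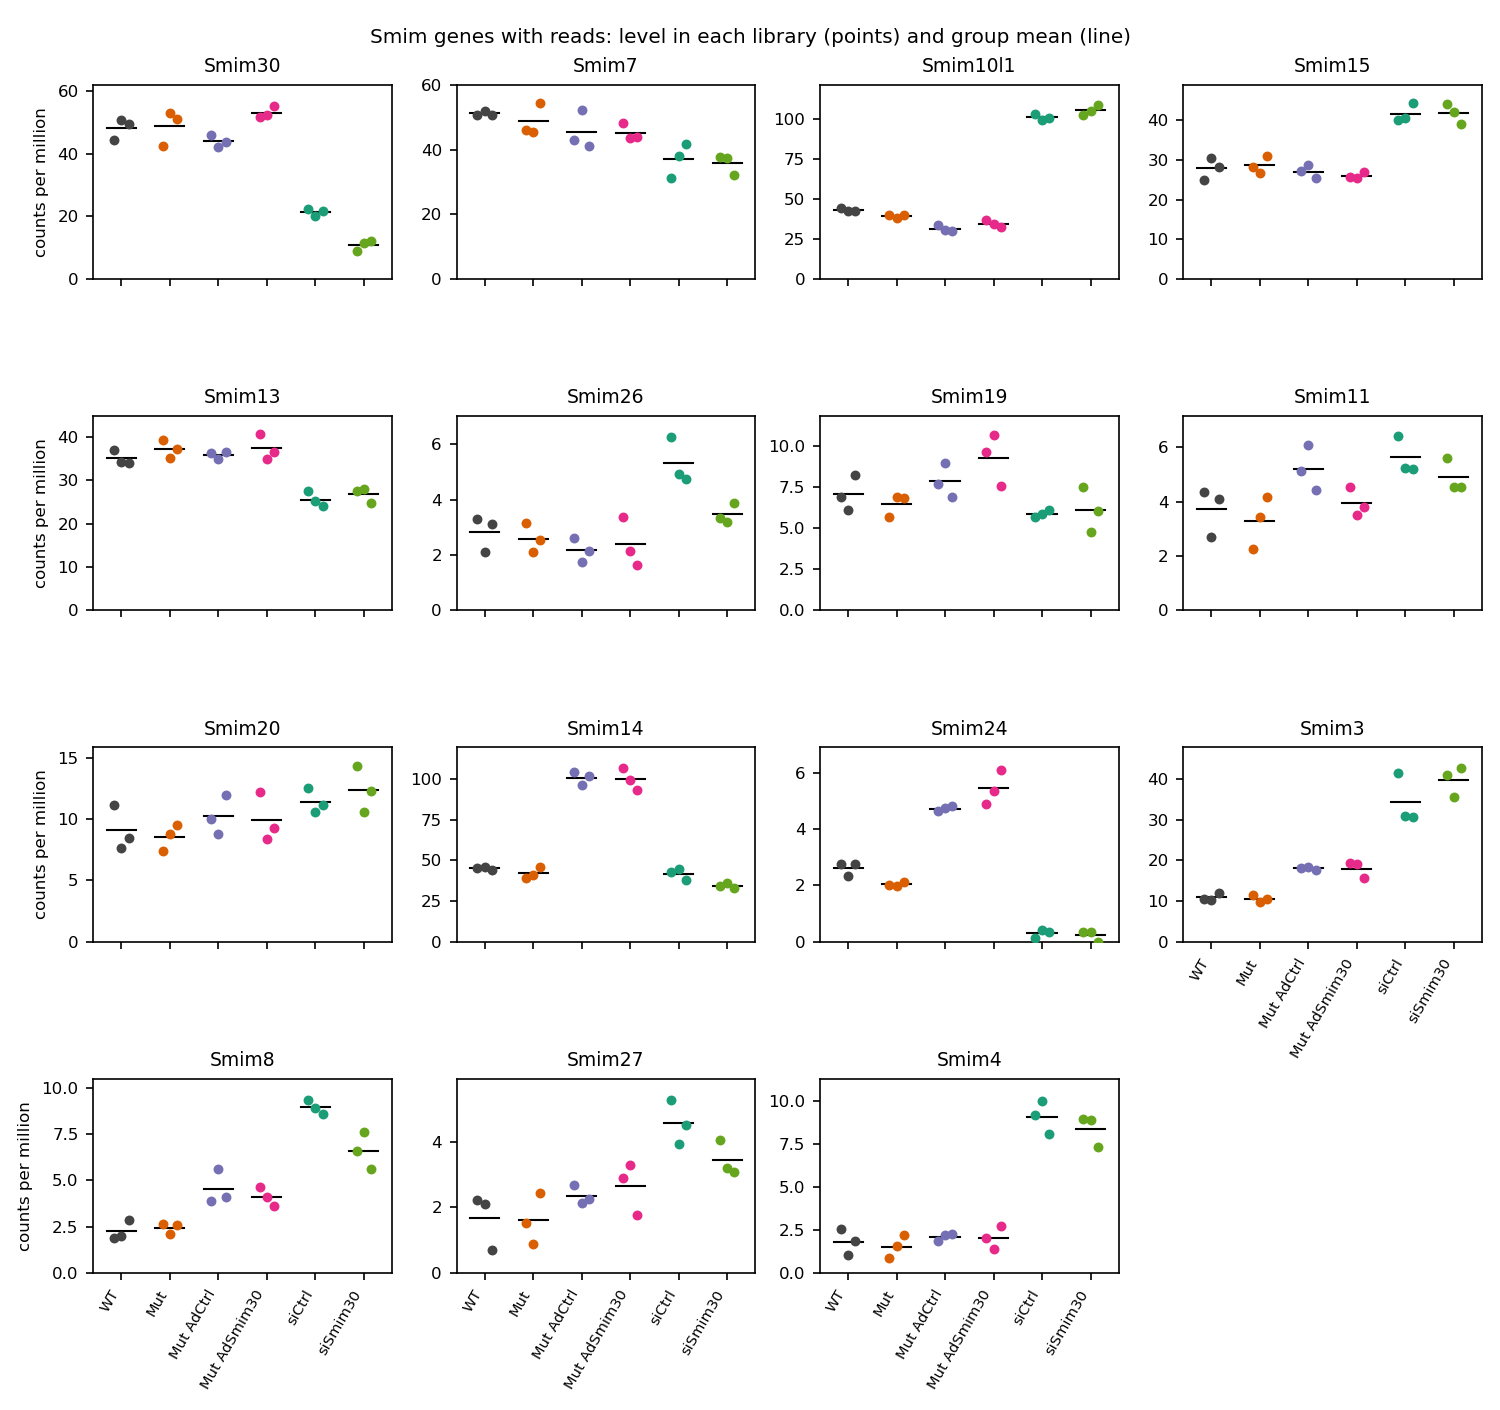
Level of 15 Smim genes that were tested in at least 1 comparison, in CPM (vertical axis, from 0, a separate scale for each gene) in the 6 groups of 3 libraries (horizontal axis), with each point a library and each line a group mean. Smim30 falls from siCtrl to siSmim30, Smim14 is near 100 in both virus groups and near 45 or below elsewhere, and Smim24 is at or near 0 in both IC-21 groups.

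To compare one gene's level with another's, CPM was divided by the exonic length counted, giving CPM per kilobase (RPKM). In WT, Smim7, Smim10l1, Smim30 and Smim15 were among the highest, well above Smim13 and the genes that followed it. Smim7 stood at 15.7 ± 0.215 RPKM (SD, n = 3), or 50.8, 52.0 and 50.8 CPM in the 3 libraries. Next came Smim10l1 at 14.1 ± 0.307 RPKM, or 44.3, 42.7 and 42.6 CPM, and per length it was below every Smim7 value and above every Smim30 value.

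Smim30 itself, at 12.7 ± 0.912 RPKM, and Smim15, at 12.6 ± 1.28, could not be ordered. Smim15 had 24.9, 30.6 and 28.1 CPM in WT. Below a step to Smim13, at 7.83 ± 0.377 RPKM, Smim26 (a mitochondrial protein) had 6.03 ± 1.36, Smim19 had 4.84 ± 0.732, Smim11 had 3.83 ± 0.92 and Smim20 had 3.12 ± 0.632. Neighbours in this run overlapped from Smim26 down to Smim14, an endoplasmic reticulum membrane protein at 2.83 ± 0.0533 RPKM. Smim24, Smim3, Smim8 and Smim4 closed the order at 2.48, 1.60, 1.49 and 1.19 RPKM.

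The order was different in IC-21. In siCtrl Smim10l1 led with 32.9 ± 0.686 RPKM and Smim15 had 18.9 ± 1.1, without overlap. Smim30 stood far lower, at 5.66 ± 0.333 RPKM, in a run from Smim4 (5.94) to Smim3 (5.03) in which each neighbour overlapped the next. Smim14 was last of the 15 expressed, at 2.62 ± 0.226 RPKM. In Mut AdCtrl, by contrast, Smim14 had 6.32 ± 0.248 RPKM, below Smim13 at 8.01 ± 0.198 and overlapping Smim11 at 5.37 ± 0.86.

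**Figure D2:**
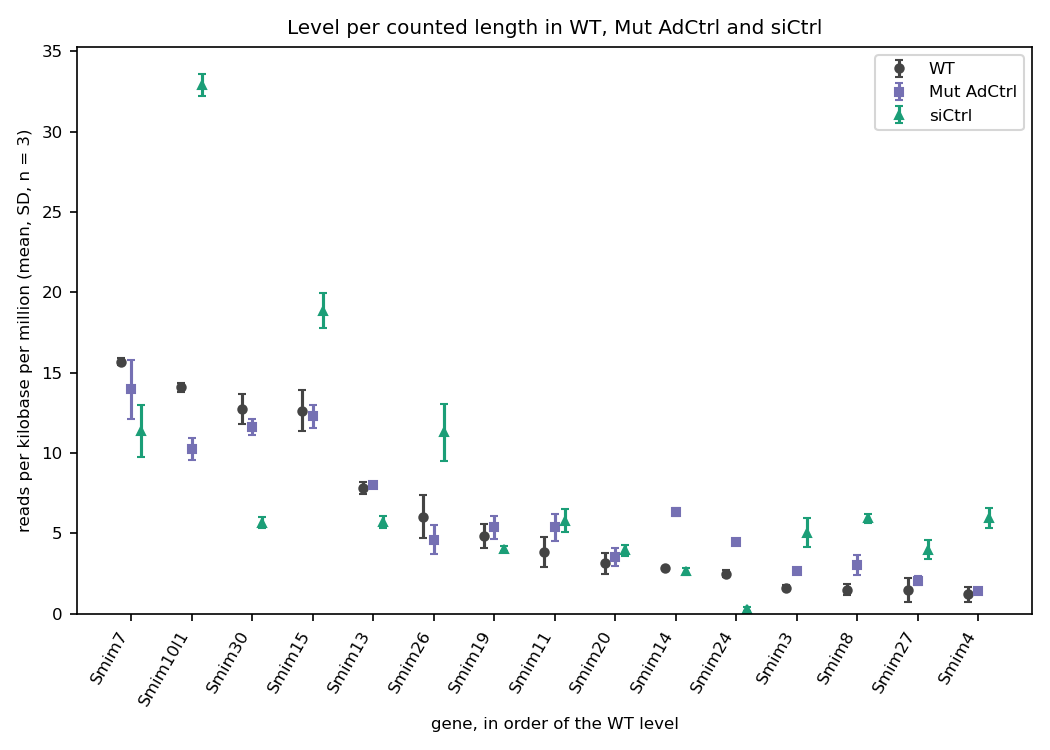
Level of 15 Smim genes per counted length, in RPKM (vertical axis), in WT, Mut AdCtrl and siCtrl, with genes in the order of their WT mean (horizontal axis), points at group means and bars of 1 SD over 3 libraries. Smim10l1 stands at 32.9 in siCtrl against 14.1 in WT, and Smim30 at 5.66 against 12.7.

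Smim30, the perturbed gene, had 44.3, 50.9 and 49.3 CPM in WT and 42.3, 52.9 and 51.0 in Mut. With virus, the Mut AdCtrl libraries held 45.9, 42.2 and 43.8 CPM, and those given the SMIM30 virus held 51.6, 52.5 and 55.1. Among IC-21 libraries, siCtrl held 22.5, 20.02 and 21.8 CPM and siSmim30 held 8.83, 11.4 and 12.03. The WT and Mut ranges overlapped almost wholly, every Mut AdSmim30 library was above every Mut AdCtrl library, and every siSmim30 library was below every siCtrl library. All 6 IC-21 libraries were below all 12 peritoneal ones. The counts cover the whole transcript, so they do not separate RNA of the endogenous gene from RNA made by a virus, nor mutant from normal RNA.

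The mutation went with no detected change in the RNA of any Smim gene taken as a member, Smim30 included. Smim29, which has the name only as a RefSeq synonym and was not a member, was called lower (below). Of the 16 members tested, 0 passed the threshold of adjusted p under 0.05 in edgeR's quasi-likelihood test, against 6.3% of all 12500 genes tested. DESeq2 and limma-voom also called 0, and of the 15 other than Smim30, 0 had an unadjusted p under 0.05. For Smim30 the log2 fold change was 0.01 ± 0.08 (SE), with a 95% interval of -0.15 to 0.18 and an adjusted p of 0.966, so the interval covers no more than a 1.13-fold rise or a fall to 0.899-fold.

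The others ran from -0.37 for Smim24 to 0.10 for Smim8 on the log2 scale. Their median was -0.08, against -0.01 for all genes tested. Smim10l1 had 40.1, 37.8 and 39.8 CPM in Mut, below all 3 WT libraries, and the smallest adjusted p (0.302; log2 fold change -0.15 ± 0.08). Smim24 had 2.76, 2.34 and 2.77 CPM in WT and 2.01, 2.00 and 2.12 in Mut, also without overlap, with an adjusted p of 0.572. These 2 of 16 genes without overlap compare with 22.9% of all genes. For genes at a few CPM the intervals were wide: that of Smim27 ran from 0.562-fold to 1.85-fold. Beside this comparison, Mut libraries had less ribosomal RNA than WT libraries (above) and B cell markers summed to 51.9 to 57.2 CPM against 72.9 to 79.6. Cd22, called lower, made up most of these sums, at 49 ± 4.11 CPM in Mut and 69.6 ± 2.51 in WT. The other markers tested were not called. From WT to Mut, Ms4a1 went from 2.94 to 1.52 CPM, Cd79a from 1.26 to 1.19 and Pax5 from 0.817 to 1.32. In siCtrl, where Cd79b and Pax5 had no count, Cd22 was at 59.2 ± 2.68 CPM. Without ribosomal RNA genes, the fit of Mut against WT still called 0 Smim genes, and 788 of all genes as before. Dropping at most 2.49% of a library's counts could change little, so this fit shows little about the ribosomal RNA difference. The part of B cells was not tested.

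With SMIM30 virus, the Smim30 level over all counted bases in mutant macrophages was 1.21-fold that with control virus. No other Smim gene was called. The reading frame is 4.76% of the counted bases and the virus insert is not given, so the fold of the frame itself was not measured. The 1 called gene of 16 compares with 1.43% of the 12701 genes tested, or 0.583% called higher, and Smim30 was the target. Its log2 fold change was 0.28 ± 0.06 (SE), with a 95% interval of 0.15 to 0.40 and an adjusted p of 0.0052 by edgeR. This call was lost in DESeq2 (adjusted p = 0.0684), in a fit of all 18 libraries (0.0532), without Mut AdCtrl replicate 2 (0.059) and without Mut AdSmim30 replicate 3 (0.113), with log2 fold changes of 0.24 to 0.31 throughout.

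Among the 15 others, 0 were called by edgeR, DESeq2 or limma-voom, and 1 had an unadjusted p under 0.05. That gene was Smim11, with 5.13, 6.09 and 4.42 CPM under control virus and 4.52, 3.50 and 3.79 under SMIM30 virus (log2 fold change -0.41 ± 0.20, adjusted p = 0.44), and its groups overlapped. Smim24 did not overlap, with 4.64, 4.74 and 4.82 CPM under control virus and 4.91, 5.37 and 6.09 under SMIM30 virus, but its adjusted p was 0.747. Over all genes tested, 15.1% did not overlap. The median of the 15 was -0.01, against 0.00 for all genes. Of 9 fibroblast and mesothelial markers, the 6 tested (Sparc, Col1a2, Col3a1, Col1a1, Pdgfra and Dcn) were all called lower in Mut AdSmim30 by edgeR. Of all genes tested, 1.43% were called in either direction. The median log2 fold change of the 6 was -1.13, against 0.00 for all genes. Lum and the mesothelial Msln and Upk3b were not tested. The 9 markers summed to 50.3 to 57.4 CPM in Mut AdSmim30 against 91.4 to 112 in Mut AdCtrl. In RNA from a whole culture, fewer cells of a type and less RNA per cell cannot be told apart, and the part of these cells in the Smim30 value was not tested.

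In IC-21 the siRNA lowered Smim30 to 0.51-fold, and again no other Smim gene passed the test. The 1 called gene of 15 tested (Smim24 had too few reads) compares with 3.48% of the 13576 genes tested, or 1.09% called lower. Smim30 fell by 0.97 ± 0.12 (SE) on the log2 scale, with a 95% interval of -1.22 to -0.72 and an adjusted p of 6.17e-08.

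Of the 14 others, 0 were called by edgeR or DESeq2 and 1 by limma-voom, while 4 had an unadjusted p under 0.05. Smim14 came nearest, with 43.2, 44.7 and 37.8 CPM in siCtrl and 34.5, 36.2 and 32.9 in siSmim30, a log2 fold change of -0.26 ± 0.08 and an adjusted p of 0.0507. The ranges did not overlap. Smim14 passed the threshold with limma-voom, without a composition factor, with the replicate number as a block and without siCtrl replicate 3, each of which brought the count of called Smim genes to 2.

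Smim26 had 6.27, 4.92 and 4.74 CPM in siCtrl and 3.34, 3.19 and 3.88 in siSmim30 (log2 fold change -0.58 ± 0.23, adjusted p = 0.177). Smim8 had 9.34, 8.92 and 8.56 CPM and then 6.57, 7.62 and 5.61 (-0.41 ± 0.17, adjusted p = 0.218). Both were lower without overlap, at fewer than 10 CPM. Smim3, first described as a gene induced by nerve growth factor, had 41.4, 30.9 and 30.8 CPM in siCtrl and 41.1, 35.5 and 42.6 in siSmim30 (0.25 ± 0.09, adjusted p = 0.163). Its groups overlapped through siCtrl replicate 1, and without that library it too was called. With Smim30, 4 of 15 tested genes did not overlap, against 19% of all genes. The median of the 14 was -0.06, against 0.00 for all genes.

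**Figure D3:**
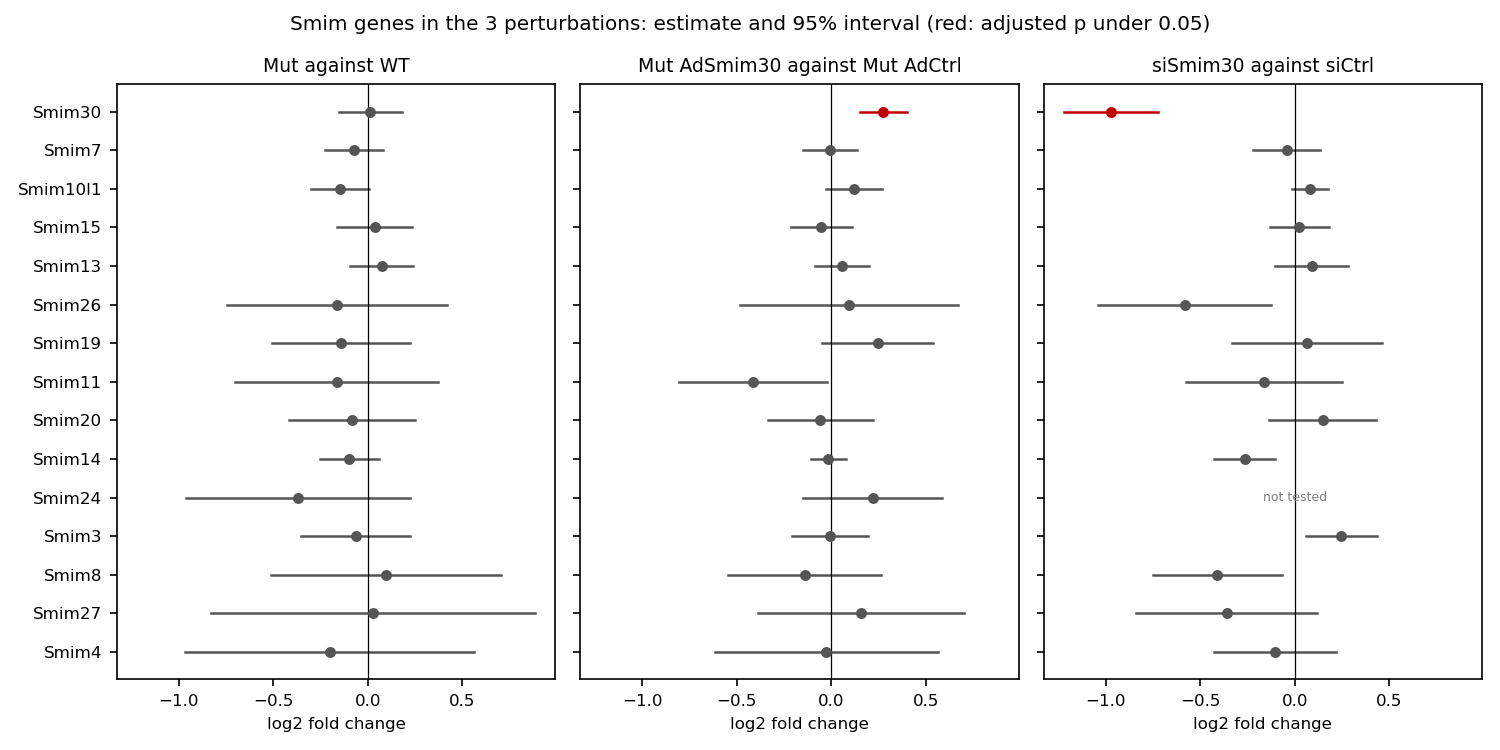
Log2 fold change (horizontal axis) of 15 Smim genes (vertical axis) in the mutant, virus and siRNA comparisons, as the edgeR estimate with its 95% interval, in red where the adjusted p was under 0.05. Smim30 is the 1 gene in red, at 0.28 with the SMIM30 virus and at -0.97 with the siRNA, and most other intervals cross 0.

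In the main edgeR fit, no other Smim gene passed the test together with Smim30 in the virus or the siRNA comparison. Under the siRNA, Smim14 or Smim3 did so in some of the alternative settings given above. Nor was any other Smim gene both lower without overlap under the siRNA and higher without overlap under the virus. The difference between the effects of mutation and siRNA was tested directly in a model of 12 libraries. It was called for Smim30 alone among 16 Smim genes, against 2.51% of 14804 genes. Of the 15 others, 0 were called by DESeq2 or limma-voom and 1 had an unadjusted p under 0.05 (Smim10l1, -0.22 ± 0.09 on the log2 scale, adjusted p = 0.197).

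More Smim genes were called between experiments than in the perturbations, as were more of all genes tested. Smim30 was among the called Smim genes in both comparisons between experiments. Mut AdCtrl differs from Mut by the control virus, a longer culture and the experiment, and these cannot be told apart. Of 16 Smim genes tested, 5 were higher and 2 lower, against 53.6% of all 12798 genes called, 27.1% higher and 26.5% lower. With libraries scaled to their totals instead, 5 were higher and 1 lower. The median of the 16 was 0.22, against 0.00 for all genes. Fibroblast and mesothelial markers moved here too, from 205 to 242 CPM in Mut to 91.4 to 112 in Mut AdCtrl; their part was not tested.

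Smim14 rose most, from 39.5, 41.0 and 46.2 CPM in Mut to 104, 96.6 and 102 in Mut AdCtrl. The groups were far apart, and the rise was 2.32-fold (log2 1.21 ± 0.06, adjusted p = 1.48e-16). In Mut AdSmim30 it stayed there, with 107, 99.3 and 93.4 CPM. Smim24 rose 2.25-fold (1.17 ± 0.24, adjusted p = 0.000136), from the 2.00 to 2.12 CPM given above to 4.64 to 4.82, again without overlap.

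Smim3 had 11.5, 9.76 and 10.5 CPM in Mut and 18.2, 18.3 and 17.6 in Mut AdCtrl, a rise of 1.67-fold (0.74 ± 0.12, adjusted p = 4.59e-06). Smim8 had 2.64, 2.11 and 2.61 CPM and then 3.91, 5.61 and 4.13 (0.84 ± 0.25, adjusted p = 0.00457). Neither pair of groups overlapped, although leaving out Mut AdCtrl replicate 2 ended the Smim8 call (adjusted p = 0.0508). Smim11 had 2.26, 3.44 and 4.16 CPM in Mut, just below the Mut AdCtrl values above (0.59 ± 0.23, adjusted p = 0.0311). Its call did not hold in DESeq2 (0.0821) or without Mut replicate 1 (0.147), Mut replicate 2 (0.0634), Mut AdCtrl replicate 1 (0.0643) or Mut AdCtrl replicate 2 (0.155).

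The 2 genes that fell did so by less. Smim10l1 went from 40.1, 37.8 and 39.8 CPM to 33.9, 30.7 and 29.9, without overlap (-0.35 ± 0.08, adjusted p = 0.000442). Smim30 went from a mean of 48.7 to 43.9 CPM with overlapping groups (-0.19 ± 0.08, adjusted p = 0.0418), and 8 of 15 alternative settings ended that call. They were library totals (0.101), no filter (0.0706), DESeq2 (0.101), the replicate block (0.0578) and leaving out Mut replicate 2 (0.211), Mut replicate 3 (0.141), Mut AdCtrl replicate 2 (0.12) or Mut AdCtrl replicate 3 (0.0782). In all, 7 Smim genes did not overlap, against 59.7% of all genes.

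Between siCtrl and WT, the cells, the transfection and the experiment differ together and cannot be told apart. Smim genes took both directions: 5 of 16 were higher and 8 lower in siCtrl, against 80.3% of all 14066 genes called, 40.1% higher and 40.2% lower. This split depends on the scaling, since library totals place the median of all genes 0.70 higher on the log2 scale than TMM does, and with totals 8 were higher and 4 lower. The median of the 16 was -0.26 with TMM, against 0.01 for all genes. Of 8 macrophage markers, 6 were lower in siCtrl, 1 was higher (Fcgr1, 3.31 ± 1.47 to 36.5 ± 1.61 CPM) and Itgam was not called (87.1 ± 2.49 to 142 ± 6.21 CPM). Their summed level was 11036 to 11755 CPM in WT and 2863 to 3020 in siCtrl, with Lyz2 the main part of the WT sum. Fibroblast and mesothelial markers summed to at most 0.597 CPM in IC-21; the part of these marker lists was not tested.

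Higher in siCtrl under both scalings were Smim4, Smim8, Smim3, Smim27 and Smim10l1. Smim4 had 2.55, 1.05 and 1.88 CPM in WT and 9.19, 10.01 and 8.10 in siCtrl (log2 fold change 1.60 ± 0.24, adjusted p = 7.48e-08). Smim8 had 1.91, 1.99 and 2.86 CPM in WT, below every siCtrl value given above (1.25 ± 0.22, adjusted p = 1.85e-06). Smim3 had 10.5, 10.2 and 12.1 CPM in WT, also below every siCtrl value (0.92 ± 0.12, adjusted p = 3.4e-09).

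Smim10l1 had 103, 99.2 and 100.4 CPM in siCtrl, so it was the most abundant Smim gene of IC-21 per length and rose by 0.52 ± 0.06 (adjusted p = 2.7e-10). Smim27 had 2.23, 2.11 and 0.71 CPM in WT and 5.25, 3.92 and 4.51 in siCtrl (0.76 ± 0.31, adjusted p = 0.0235). No overlap was seen for either, but the Smim27 call was lost in DESeq2 (0.0749), without WT replicate 3 (log2 fold change 0.32, adjusted p = 0.333) and without siCtrl replicate 1 (0.0774). Smim27 shares 32.2% of its counted length with Topors and Ndufb6 on the opposite strand.

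Lower in siCtrl under both scalings were Smim24, Smim30, Smim13 and Smim7. Smim24 had 26, 20 and 31 counts in WT and 1, 5 and 3 in siCtrl, that is 0.15, 0.42 and 0.35 CPM, at or near the detection limit (0.0795-fold, 95% interval 0.0439 to 0.144, adjusted p = 1.26e-10). Smim30 fell to 0.271-fold (-1.88 ± 0.09, adjusted p = 1.22e-24), and to -1.18 on the log2 scale with library totals. Smim30 in siCtrl was thus already below every WT library before any siRNA against it.

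Smim13 had 37.0, 34.2 and 34.0 CPM in WT and 27.4, 25.2 and 24.1 in siCtrl (-1.17 ± 0.09, adjusted p = 1.63e-16). Smim7 had 31.4, 37.9 and 41.9 CPM in siCtrl, below all WT libraries (-1.16 ± 0.08, adjusted p = 2.13e-17). Both were lower in raw CPM too. The calls of Smim19, Smim14 and Smim20 were lost with library totals. Those of Smim19 and Smim14 each held in 14 of 15 alternatives, and that of Smim20 in 11. Smim19, with 6.9, 6.1 and 8.22 CPM in WT and 5.69, 5.84 and 6.13 in siCtrl, fell by 0.98 ± 0.18 (adjusted p = 6.37e-06), but by 0.27 with library totals (adjusted p = 0.163). Smim14 fell by 0.81 ± 0.08 with TMM (adjusted p = 2.28e-13) and by 0.10 with totals (0.203). Smim20 changed sign, from -0.39 with TMM to 0.32 with totals. Smim11, Smim15 and Smim26 were not called with TMM and were higher with totals, by 0.57, 0.58 and 0.87. Of the 16 genes, 12 did not overlap in CPM, against 86.8% of all genes.

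**Figure D4:**
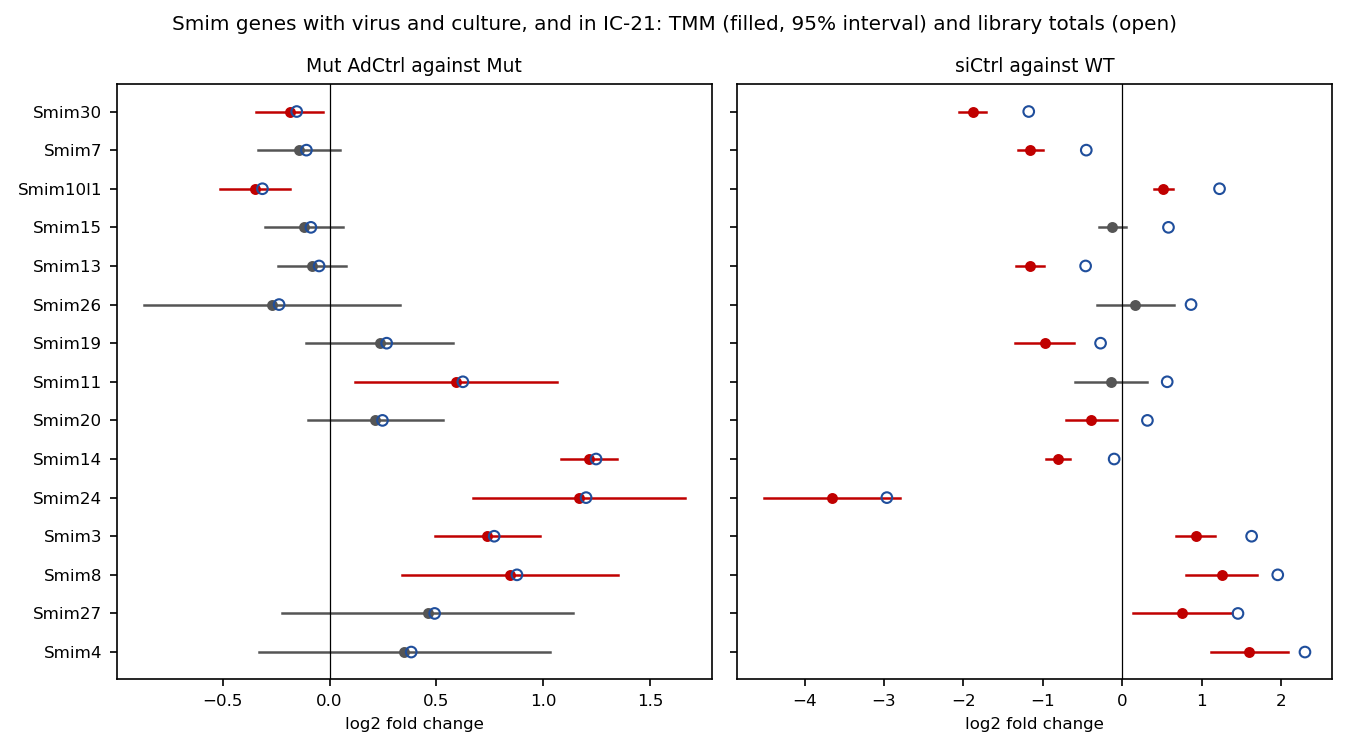
Log2 fold change (horizontal axis) of 15 Smim genes (vertical axis) in Mut AdCtrl against Mut and in siCtrl against WT, with filled points and 95% intervals for TMM scaling (red where the adjusted p was under 0.05) and open circles for scaling to library totals. The 2 scalings nearly coincide in the left panel and differ by about 0.70 in the right panel, where Smim20 changes sign.

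Small membrane proteins with other names, a list drawn up from general knowledge for comparison, were called at shares near those of all genes in the perturbations. Of the 20 listed, 13 were tested in Mut against WT and in the virus comparison, and 0 were called in either by edgeR, DESeq2 or limma-voom, against 6.3% and 1.43% of all genes by edgeR, with 2 at an unadjusted p under 0.05 in each. Their median log2 fold changes were 0.08 and -0.04, against -0.01 and 0.00 for all genes. Of 14 tested under the siRNA, 1 was called, against 3.48% of all genes: Tmem258, a subunit of the oligosaccharyltransferase, went from 50.3 ± 3.1 to 40.8 ± 2.09 CPM (log2 fold change -0.29 ± 0.07, adjusted p = 0.0121). limma-voom also called 1 there and DESeq2 called 0. In Mut AdCtrl against Mut, 2 were higher and 5 lower of 13, with a median of -0.23, against 27.1% of all genes higher and 26.5% lower. Serp1, a protein of the endoplasmic reticulum translocon, fell from 305 ± 8.58 to 177 ± 2.97 CPM there (-0.82 ± 0.04, adjusted p = 2.61e-16). Tomm7, of the mitochondrial import pore, rose from 22.9 ± 3.12 to 31.4 ± 1.7 CPM (0.41 ± 0.09, adjusted p = 0.000526). In siCtrl against WT, 7 were higher and 4 lower of 13, with a median of 0.33, against 40.1% of all genes higher and 40.2% lower.

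Genes of the processes in which named Smim proteins take part were counted in the same way. Of 28 listed assembly factors of respiratory complexes III and IV, to which Smim4 and Smim20 are linked, 0 of 26 were called by edgeR in Mut against WT, 0 of 26 in the virus comparison and 0 of 27 under the siRNA, against 6.3%, 1.43% and 3.48% of all genes. Their medians were -0.03, -0.01 and -0.03. DESeq2 and limma-voom called 0 in each as well, and 0, 1 and 2 had an unadjusted p under 0.05. In Mut AdCtrl against Mut 1 was higher and 5 lower of 26, against 27.1% and 26.5% of all genes, with a median of -0.09. Among them Coa5 fell from 250 ± 17.4 to 139 ± 1.12 CPM (-0.88 ± 0.05, adjusted p = 8.97e-16). In siCtrl against WT 9 were higher and 10 lower of 27, against 40.1% and 40.2% of all genes, with a median of -0.14.

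Of the SERCA pumps, Atp2a2 and Atp2a3 were tested. Neither was called in the 3 perturbations by edgeR, DESeq2 or limma-voom, against 6.3%, 1.43% and 3.48% of all genes by edgeR. Of these 6 tests, 1 had an unadjusted p under 0.05 (Atp2a2 with the SMIM30 virus, log2 fold change 0.08, adjusted p = 0.382). In Mut AdCtrl against Mut, Atp2a2 went from 417 ± 12.6 to 232 ± 4.79 CPM (-0.88 ± 0.04, adjusted p = 9.51e-18). Atp2a3 went the other way, from 20.2 ± 2.69 to 39.1 ± 0.824 CPM (0.91 ± 0.09, adjusted p = 3.53e-10). Of the pump's inhibitors, Smim6, Pln and Sln had no count in any library, while the pump's own RNA was abundant. Mrln had counts in every group except Mut AdCtrl and siSmim30, too few to be tested. Another-regulin (1810037I17Rik) had 50.5 ± 2.35 CPM in WT and 80 ± 1.78 in siCtrl. These CPM use library totals, which place all genes about 0.70 higher in siCtrl on the log2 scale than TMM does. With TMM it was not called there (edgeR, log2 fold change -0.04 ± 0.06, adjusted p = 0.547). Neither was it called in the 3 perturbations. In Mut AdCtrl against Mut it fell from 53.8 ± 2.77 to 29.8 ± 0.949 CPM (-0.89 ± 0.08, adjusted p = 1.07e-11).

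Src family kinases were the 1 related list with calls in Mut against WT, 2 of 6 tested against 6.3% of all genes: Fyn was higher (19.0 ± 1.24 to 26.4 ± 0.579 CPM, 0.46 ± 0.10, adjusted p = 0.00321) and Fgr lower (146 ± 4.67 to 121 ± 9.15 CPM, -0.27 ± 0.06, adjusted p = 0.002). Src itself, at 286 ± 17.5 and 311 ± 9.08 CPM, was not called (adjusted p = 0.228). With the SMIM30 virus 0 of 6 and under the siRNA 0 of 5 were called by edgeR, DESeq2 or limma-voom. The shares of all genes called by edgeR there were 1.43% and 3.48%. Of the kinases, 0 and 1 had an unadjusted p under 0.05. In Mut AdCtrl against Mut 4 of 7 were lower, against 26.5% of all genes, among them Src (311 ± 9.08 to 103 ± 5.31 CPM, -1.62 ± 0.05, adjusted p = 7.81e-23). In siCtrl Src was at 2.17 ± 0.726 CPM. Yes1, the other reported partner of human SMIM30, had no count in either IC-21 group. It was also low in Mut (1.07 ± 0.319 CPM) and Mut AdCtrl (1.11 ± 0.259 CPM). In siCtrl against WT, 2 of 6 tested Src family kinases were higher (Fyn and Lck) and 4 lower, against 40.1% and 40.2% of all genes.

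A further 4 genes carry a Smim name only as a RefSeq synonym and were not counted as members: Smim29 (AI413582), Smim32 (Gm45623), Smim33 (1700066B19Rik) and Smim35 (BC049352). Smim32 had no count and Smim33 and Smim35 reached at most 1.34 and 0.91 CPM in a library. Smim29 is named here after its values were seen, because it was called in Mut against WT. It had 39.2, 46.5 and 42.5 CPM in WT and 35.7, 32.7 and 32.2 in Mut, without overlap (log2 fold change -0.36 ± 0.08, adjusted p = 0.00552). The call was lost without WT replicate 2 (-0.29, adjusted p = 0.0793). It was not called with the SMIM30 virus (-0.13, adjusted p = 0.514) or under the siRNA (-0.09, adjusted p = 0.769). Of its counted length, 32.7% overlaps Hmga1 and C130040N14Rik on the opposite strand.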

How the data were processed

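Total RNA of 18 libraries was sequenced with a strand-specific protocol, per the labels' protocols. Each deposited file gives unnormalized counts, the number of read pairs on each gene, made by the authors with featureCounts 2.0.3 over exons on reversely stranded pairs with GENCODE M25, per the file headers. fastp, FastQC, HISAT2 and DESeq2 are also named in the submitters' processing notes. Groups came from sample titles, and no sample was left out. Symbols came from GENCODE M21 (55141 identifiers matched, 260 did not) and RefSeq. Each comparison was fitted to its own 6 libraries in edgeR 4.0.16 (R 4.3.3): filterByExpr, TMM, robust quasi-likelihood F test, Benjamini-Hochberg adjustment over all genes tested. The scripts were tested on simulated data. CPM shown use library totals. Per-library values were given for Smim30, the 5 highest genes per length in WT, and, in the context comparisons, the 5 largest rises and falls among called members; each list was allowed up to 4 called members, not all of which are named. Members, lists and tests were chosen with earlier results of these data known. Alternatives were RLE, library totals, no filter, 1 CPM in 3 libraries, DESeq2 1.42.0, limma-voom (3.58.1), a fit of all 18 libraries, a replicate block and leaving out each library; removal of ribosomal RNA genes was added after the data were seen. Counts of replicates were never within sampling noise of each other (chi-square per gene 1.67 to 5.24). Values of some single genes are not reported here, although the counts of genes include them. Neutrophil markers summed to at most 9.85 CPM and mast cell markers to at most 8.2.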

Additional observations from a re-analysis of the deposited data

Results flagged for a closer look

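The effect on Smim30 differed between the mutation and the siRNA by a direct test of the difference. The mutation effect minus the siRNA effect was 0.99 ± 0.15 (SE) on the log2 scale (edgeR, adjusted p = 1.85e-05): 0.01 in peritoneal macrophages and -0.97 in IC-21, where 3 of 3 siSmim30 libraries lay below all siCtrl libraries. It kept its direction and its call in 21 of 21 alternatives, between 0.85 and 1.07. The kind of perturbation, the cells and the experiment cannot be told apart in it.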

How the results depend on the processing

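No Smim gene taken as a member was called in Mut against WT in any of 15 alternatives. Smim29, not a member, kept its call in 14 of them. The log2 fold change of Smim30 stayed within -0.05 to 0.09. The rise of Smim30 with the SMIM30 virus was 0.28 in DESeq2 and 0.28 in the fit of all 18 libraries but was not called in either, so the count of called Smim genes was 0 in both. Leaving out 1 library gave 0.24 to 0.31 and a count of 0 to 1 there; the cause was not tested. The fall under the siRNA stayed within -1.05 to -0.85 and was called in 14 of 14 alternatives; DESeq2 gave no adjusted p for Smim30 there, and its count is not given. The count of called Smim genes under the siRNA was 2 with no composition factor, 2 with limma-voom, and 1 to 2 on leaving out 1 library; the cause was not tested. Replicate numbers did not pair the samples: same-numbered libraries correlated at -0.129 to 0.091 across comparisons, and in none of them did every library correlate best with its own number. With the replicate number as a block, the count under the siRNA was 2 (Smim14 added), and the Smim30 fall in Mut AdCtrl against Mut was not called (-0.18, adjusted p = 0.0578). With library totals, siCtrl against WT reversed for Smim20 (0.32), since that scaling moves all genes upward. The Smim20 call was also lost in DESeq2 (adjusted p = 0.0572), without WT replicate 1 (0.149) and without siCtrl replicate 2 (0.0915).

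Counts over all genes moved by more than 1.5 times as follows. Mut against WT (788) gave 1198 in the fit of all 18 libraries and 469 without Mut replicate 2. The virus comparison (181) gave 68 in DESeq2, 87 with all 18 libraries and, on leaving out a library, 82 (Mut AdCtrl replicate 1), 453 (replicate 3 of that group), 106 (Mut AdSmim30 replicate 2) and 66 (replicate 3 of that group). The siRNA comparison (472) gave 296 in DESeq2, 263 with all 18 libraries and 309 without siCtrl replicate 2. The test of mutation minus siRNA (372) gave 571 without Mut replicate 3. With 3 libraries a group, genes at a few CPM have wide intervals, and absence of a call for them does not show absence of a change.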
